A study of Mus musculus with 4 samples.

Results

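Genes that mark the adrenal gland were followed in 4 pools of embryonic mouse kidney, 2 from dams on a control diet and 2 from dams on an iron-deficient diet. The set lists 10 genes in 3 roles: Star, Cyp11a1, Cyp17a1, Hsd3b1, Nr5a1 and Mc2r of the steroid-making cortex, Th, Dbh and Chga of the chromaffin cells of the medulla, and the ferredoxin Fdx1l. A probe set, the group of short array probes read together as 1 signal, was a member when the platform annotation gave it exactly 1 gene symbol and that symbol was listed. This gave 16 probe sets for 9 genes, of the 18193 genes that 34945 such probe sets name and of 45037 probe sets in all, control probe sets aside. Fdx1l, whose current symbol is Fdx2, had 0 such probe sets. The 1 probe set that carries the current symbol also lists another gene and was not used here.

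The kidneys came from C57BL/6 embryos at embryonic day 15, and each pool held 16 of them on 1 Affymetrix array. Dams, 8 weeks old at the start, ate the control diet with 220 ppm iron or the iron-deficient diet with 2 to 6 ppm for 3 weeks before gestation, and stayed on it until collection. No label tells if the pools of 1 diet came from separate litters, so limma p-values reflect spread among 4 pools that could be technical. The labelled tissue is kidney, and the adrenal glands lie against it. How they were separated is not given in the labels. Below, the iron-deficient pools are called deficient pools 1 and 2.

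The adrenal gland joins tissues of different origin. The cortex, derived from the coelomic epithelium next to the kidney, turns cholesterol into corticosteroids: corticotropin binds the receptor encoded by Mc2r, the Star protein carries cholesterol into mitochondria, and Cyp11a1, Hsd3b1 and Cyp17a1 encode successive or alternative enzymes of the pathway, while Nr5a1 encodes the nuclear receptor that switches these genes on. The medulla descends from the neural crest, and its chromaffin cells use the enzymes encoded by Th and Dbh to make catecholamines, which they store with the granule protein encoded by Chga. Sympathetic neurons, which also reach the kidney, share Th, Dbh and Chga, so these genes mark the sympathoadrenal lineage rather than chromaffin cells alone. Fdx1l is grouped with steroid genes by its older name, but its protein serves iron-sulfur cluster assembly.

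The arrays were not alike. Background was set for each array as the highest signal among 27 control probe sets for Bacillus genes, RNA that the labels do not name as added, and it was 8.5 and 8.2 in control pools 1 and 2 and 14.4 and 13.3 in iron-deficient pools 1 and 2. Iron-deficient pool 1 stood apart: its log2 signals correlated with those of the other arrays at 0.883 to 0.913 across probe sets, which are not independent replicates, against 0.978 between the control pools. Its 18 hybridisation control probe sets, which read RNA usually added in equal amount to each array, had a median of 1.78 times the control mean, against 1.23 times in deficient pool 2, and its 18S ribosomal RNA signal at the 5′ part was 2144.5 against 243 to 291.9 elsewhere. The labels call every sample female, yet the Y-linked gene Eif2s3y read 594.5 and 600 in the controls, then 253.6 in deficient pool 1 but 20.8 in deficient pool 2, and Xist read 926.6, 167.8, 3427.3 and 1543.3 in that order. All 11 kidney genes with a probe set, among them Six2, Lhx1, Nphs1 and Foxd1, were above background in every pool, with differences of 0.44, 0.29, -0.98 and 0.53 for these 4 and a list median of 0.11. The part that these differences play in the results below was not tested.

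Of the 11 cortical probe sets, 1 was higher and 3 were lower in both deficient pools and 7 overlapped. Among all 45037 probe sets, 13.9% were higher and 20.4% lower, so the cortical counts are near these shares. None of the cortical ones tested passed the adjusted threshold by limma. Mc2r was well above background in every pool, while Cyp17a1, Hsd3b1 and Nr5a1 were near or below it. In the controls the Th and Dbh probe sets were below background, while Chga read 12 and 16.8, above it. All chromaffin probe sets were highest in deficient pool 1. Of the 16 member probe sets, 5 were above background in all 4 pools, 8 in some and 3 in none. The 5 belong to Star, Cyp11a1 and Mc2r. In the summed signal of the 11 cortical probe sets, the control pools had 253.6 and 206.7 and the iron-deficient pools 263.6 and 190.2, so the ranges overlapped. The 5 chromaffin probe sets summed to 29.7 and 29.1 in the controls, then 310 in deficient pool 1 but 59.7 in deficient pool 2. In pooled tissue, fewer cells of a type and less RNA per cell cannot be told apart.

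The chromaffin members were all highest in 1 pool, and the stretches just before their transcription starts are therefore shown, as 250 bases on the strand of each gene, from RefSeq on GRCm38.p6. The windows lie at chr7:142899996-142900245 (minus strand) for Th, chr2:27165257-27165506 (plus strand) for Dbh and chr12:102554691-102554940 (plus strand) for Chga. Capitals mark matches to any of 3 motifs, searched on both strands.

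Th: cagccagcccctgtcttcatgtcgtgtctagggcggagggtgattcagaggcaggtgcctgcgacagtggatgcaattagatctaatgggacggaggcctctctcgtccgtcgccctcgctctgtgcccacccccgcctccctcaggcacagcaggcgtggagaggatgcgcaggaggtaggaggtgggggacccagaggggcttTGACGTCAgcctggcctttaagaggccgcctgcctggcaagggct

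Dbh: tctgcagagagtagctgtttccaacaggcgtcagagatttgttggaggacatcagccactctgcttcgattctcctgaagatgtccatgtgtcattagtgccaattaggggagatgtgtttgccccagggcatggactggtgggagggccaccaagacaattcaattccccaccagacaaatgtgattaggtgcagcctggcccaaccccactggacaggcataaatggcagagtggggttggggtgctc

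Chga: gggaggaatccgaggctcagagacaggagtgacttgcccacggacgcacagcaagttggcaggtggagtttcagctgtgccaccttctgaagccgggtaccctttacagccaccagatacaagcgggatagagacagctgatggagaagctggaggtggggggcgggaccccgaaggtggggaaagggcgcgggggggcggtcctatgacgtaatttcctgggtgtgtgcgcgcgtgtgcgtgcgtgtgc

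The motif TGACGTCA, the palindromic cAMP response element, begins 45 bases before the Th start and is found in 1.55% of 32851 promoter windows of this length. The core of the site bound by the Nr5a1 protein, spelled AAGGTCA, is in 4.08% of windows. The core promoter box spelled TATAAA is in 12.4%. Neither is in the windows of Th, Dbh or Chga, and none of the 3 motifs is in those of Hsd3b1 or of either Cyp11a1 start, so for 5 members the Th match was the only one. Windows for the other 4 members on the array (Star, Cyp17a1, Nr5a1 and Mc2r) were not analysed here. Only exact matches were counted, so near matches, such as tgacgtaa in the Chga window, were not. A match, or the lack of one, is a description of the letters and says nothing of binding.

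Mc2r, the receptor for corticotropin, was the brightest cortical probe set and did not separate the diets. Its signal was 72.8 and 56.4 in the controls and 70.3 and 49.5 under iron deficiency. The groups overlapped, and the log2 difference, iron-deficient minus control, was -0.12 ± 0.36 (SE, n = 2 pools per diet; limma adjusted p = 0.934). The difference was 0.06 without control pool 1 and 0.13 without deficient pool 2, so its sign rests on these pools.

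Star, which delivers cholesterol to the first enzyme, was read by 3 probe sets that disagreed in sign. The brightest, 1449201_at, read 37.9 and 49.5 in the controls and 33.4 and 34.3 under iron deficiency, so that both iron-deficient pools lay below both control pools. The log2 difference was -0.36 ± 0.33 (limma adjusted p = 0.852). The second, 1418729_at, read 25.4 and 13.2 against 38.9 and 24.6, with a difference of 0.76 ± 0.46 (limma adjusted p = 0.852) and overlapping groups. The third, 1418728_at, read 31.2 and 22.8 against 36.7 and 11.2, where the lowest value was below background, and its difference of -0.40 ± 0.62 became 0.46 without deficient pool 2 and -1.25 without deficient pool 1. No direction for Star is therefore given.

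Cyp11a1, which encodes the side-chain cleavage enzyme that commits cholesterol to steroids, likewise gave no call on either tested probe set. Probe set 1439947_at read 37.8 and 20.3 in the controls and 31.2 and 24.3 under iron deficiency, with both iron-deficient values between the control values. Its difference was -0.01 ± 0.42 (limma adjusted p = 0.997), or 0.44 without control pool 1, -0.46 without control pool 2 and 0.17 without deficient pool 2. Probe set 1448804_at read 21.7 and 18.9 against 18.4 and 17.3, a narrow separation with a difference of -0.18 ± 0.32 (limma adjusted p = 0.888). The third, 1457604_x_at, whose suffix marks probes that may match other transcripts, ranged from 5.2 to 9.3 and was above background in control pool 1 alone.

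The other cortical members were too dim to be tested, since the probe sets in the lowest 40% by mean log2 signal, below a signal of 17.3, were left out. Cyp17a1, needed for glucocorticoids in many mammals but silent in the adult mouse adrenal, read 1 and 1.3 in the controls and 0.4 and 0.6 under iron deficiency, all below background. Hsd3b1 read 3.1 and 6.5 in the controls and 14.2 and 10.2 under iron deficiency. Although both iron-deficient values were the higher, none was above the background of its array, so no fold is given. With the alternative background, the median plus 3 median absolute deviations of the same control probe sets (10.1 and 8.9 in the controls, 8.4 and 9.5 under iron deficiency), both deficient pools were above it and neither control was. Near-identical Hsd3b paralogues make this probe set uncertain. Its relative Hsd3b3, named here after its values were seen, read 16.6 and 14.4 in the controls and 4.5 and 4.3 under iron deficiency, where it was not above background. Nr5a1 read 7.1, 11.6, 10.6 and 7.4 on its brighter probe set, where only the second control pool was above background, and 6.3, 1, 1.1 and 3 on the dimmer one.

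**Figure D1:**
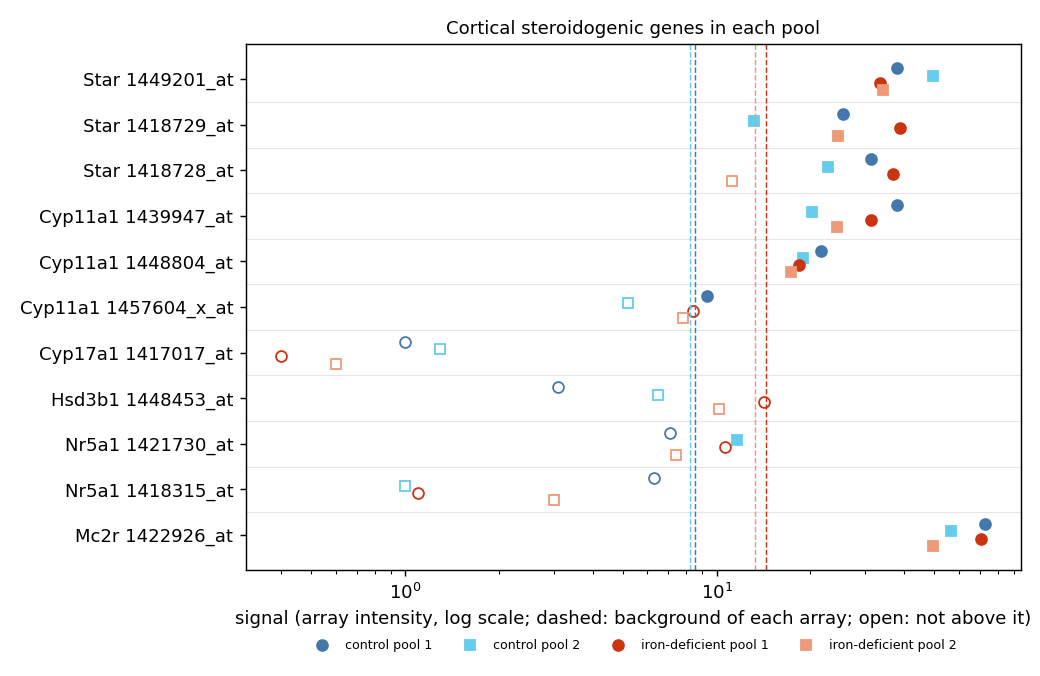
Signals of the 11 cortical probe sets (rows, brightest first within a gene) in each pool, on a log axis of array intensity; blue marks are control pools and red marks iron-deficient pools, open marks were not above the background of their array and dashed lines show the 4 backgrounds. Mc2r lies between 49.5 and 72.8, and every value of Cyp17a1, Hsd3b1 and the dimmer Nr5a1 probe set is open.

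Chromaffin members had their highest signal in deficient pool 1 on all 5 probe sets. Th, the rate-limiting enzyme of catecholamine synthesis, read 4.6 and 5 in the controls, then 81.8 in deficient pool 1 but 8.7 in deficient pool 2. Only the 81.8 was above background, and it was 5.68 times the highest background of the 4 arrays. By geometric group means, as for the diet folds below, the iron-deficient signal was 3.20 times the control signal, with controls at their array backgrounds. With the controls at the highest background it was 1.85 times. Only 1 of 2 iron-deficient pools was above background, and the 8.7 of deficient pool 2 was taken as read. These folds are therefore not lower bounds.

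Dbh, which turns dopamine into noradrenaline, was the member with signal above background in both iron-deficient pools and in neither control pool. On 1447592_at it read 7.1 and 4.9 in the controls and 37.5 and 20.6 under iron deficiency. That is at least 3.33-fold higher, or at least 1.93-fold with the controls taken at the highest background. Among all 45037 probe sets, 41 (0.091%) were above background in both iron-deficient pools and in neither control pool. The other probe sets of the same gene read 5.1 and 1.9 against 62.2 and 8.6 for 1450670_at, and 0.9 and 0.5 against 72.6 and 11.7 for 1459848_x_at, a probe set that may match other transcripts. On these, deficient pool 1 alone was above background (with the alternative background, both deficient pools were for 1459848_x_at). With the controls raised to background, the groups differed by 2.77-fold and 3.49-fold, or 1.61-fold and 2.02-fold at the highest background. The 8.6 and 11.7 of deficient pool 2 were taken as read although below background, so these folds are not lower bounds. The 3 probe sets read 1 transcript and are not replicates of the diet.

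Chga, which encodes chromogranin A of the secretory granule, read 12 and 16.8 in the controls, then 55.9 in deficient pool 1 but 10.1 in deficient pool 2. It was above background in 3 pools, and the groups overlapped because deficient pool 2 was the lowest. It was the only chromaffin member to pass the filter on mean signal, and it did so through the value in deficient pool 1, since the other 3 pools lay under the limit of 17.3. Its log2 difference was 0.74 ± 0.82 (limma adjusted p = 0.853), which was -0.49 without deficient pool 1 and 1.98 without deficient pool 2.

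**Figure D2:**
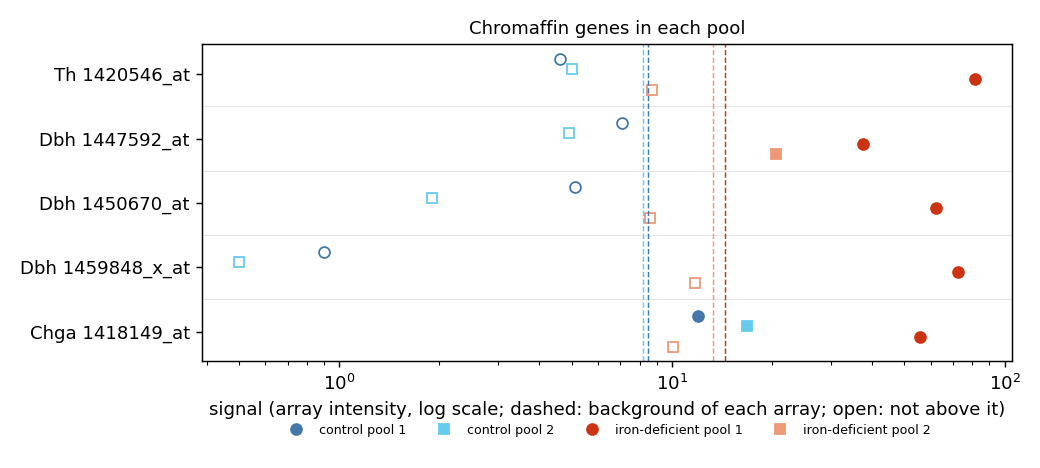
Signals of the 5 chromaffin probe sets (rows) in each pool, on a log axis of array intensity; marks, colours, open symbols and dashed background lines as for the cortical genes. Iron-deficient pool 1 lies between 37.5 and 81.8, and Dbh on 1447592_at is the only row with both iron-deficient pools filled and both control pools open.

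Across the members no call was made. Of 27022 probe sets tested, 0 (0%) passed an adjusted p of 0.05 by limma, and 1069 (3.96%) had an unadjusted p under 0.05. Of the 7 member probe sets among them, covering Star, Cyp11a1, Mc2r and Chga, 0 passed at either level. None of the 7 was higher and 2 were lower in both deficient pools, where 11.8% of tested probe sets were higher and 25% lower. Of all 16, 5 were higher (Hsd3b1, Th and the 3 of Dbh), 3 lower and 8 overlapping, beside 13.9% higher and 20.4% lower among all 45037. When all 45037 were tested without the filter, 0 (0%) passed an adjusted p of 0.05 by limma and 4.53% had an unadjusted p under 0.05. Among these were 3 of the members, with limma adjusted p-values of 0.692 for 1459848_x_at of Dbh, 0.795 for 1447592_at of Dbh and 0.921 for Cyp17a1. These tests use signals below background as they stand.

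The pools of the iron-deficient diet differed from each other. Taking a signal above the highest background and at least 2-fold above each other pool, with dimmer signals set to that background, 4 of 5 chromaffin probe sets (Th, Chga and 2 of Dbh) and 0 of 11 cortical ones were highest in deficient pool 1. The same held for 4.86% of all probe sets. No member was highest by this rule in another pool. With 1 probe set per gene, the rule found 2.87% of 18193 genes for deficient pool 1, 0.495% for deficient pool 2, and 0.0495% and 0.022% for control pools 1 and 2. The array of deficient pool 1 is the one that stood apart, and how much of the chromaffin signal goes with that was not tested. After every array was scaled to its hybridisation controls, with signals below the highest background set to it, the difference was 1.05 for Th and 0.80 for Dbh on 1447592_at, against 1.25 and 0.95 before. That scaling lowered the tested differences by a shared amount, so that Mc2r went from -0.12 to -0.69, Star on 1449201_at from -0.36 to -0.93 and Chga from 0.74 to 0.17, with no member past the adjusted threshold by limma.

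The wider sympathoadrenal genes went in both directions. The list holds 29 genes, of which 26 had a probe set and 15 were tested on the brightest. None passed an adjusted p of 0.05 by limma. In both deficient pools 3 were higher and 6 lower, beside 11.8% and 25% of all tested probe sets, and the median log2 difference was -0.16, beside -0.10 over all tested. Chgb, the granule protein nearest in kind to Chga, read 14.7 and 19.5 in the controls, then 246.6 in deficient pool 1 but 11.5 in deficient pool 2, so the groups overlapped as they did for Chga, and it too passed the filter through deficient pool 1. Resp18, an endocrine granule protein, read 1.4 and 6.3 against 58 and 4.3, and Isl1, a transcription factor of sympathetic neurons, 12.3 and 5.9 against 51.2 and 10.7. These 3 of 26 genes were the ones highest in deficient pool 1 by the 2-fold rule, beside 2.87% of all genes.

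The 4 tested genes of the list with the smallest p have roles in making or storing catecholamines. In both deficient pools 3 of them had lower signals and 1 higher, and none passed the adjusted threshold by limma. Slc18a1, the vesicular transporter that loads catecholamines into chromaffin granules, read 97.6 and 93.4 in the controls and 39.1 and 25.3 under iron deficiency. The groups did not overlap, and the difference was -1.60 ± 0.36 (limma adjusted p = 0.852). Pnmt, which makes adrenaline from noradrenaline, read 65.4 and 59.2 against 19.4 and 39.7 (-1.17 ± 0.44), and Ddc, the decarboxylase between the Th and Dbh steps, which proximal tubules also express, read 213.6 and 155.4 against 81.5 and 111.5 (-0.93 ± 0.36). Gch1, which makes the cofactor of the Th enzyme, read 23.9 and 30.9 against 48.4 and 63.5 (1.03 ± 0.35). The same limma adjusted p of 0.852 applied to Pnmt, Ddc and Gch1. Not every catecholamine gene of the list separated the diets: Slc18a2 read 66.1 and 51 against 116.2 and 47.5, with overlapping groups. Slc18a1 and Pnmt were above background in both controls, where Th and Dbh were not, and which cells gave their signal was not tested.

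**Figure D3:**
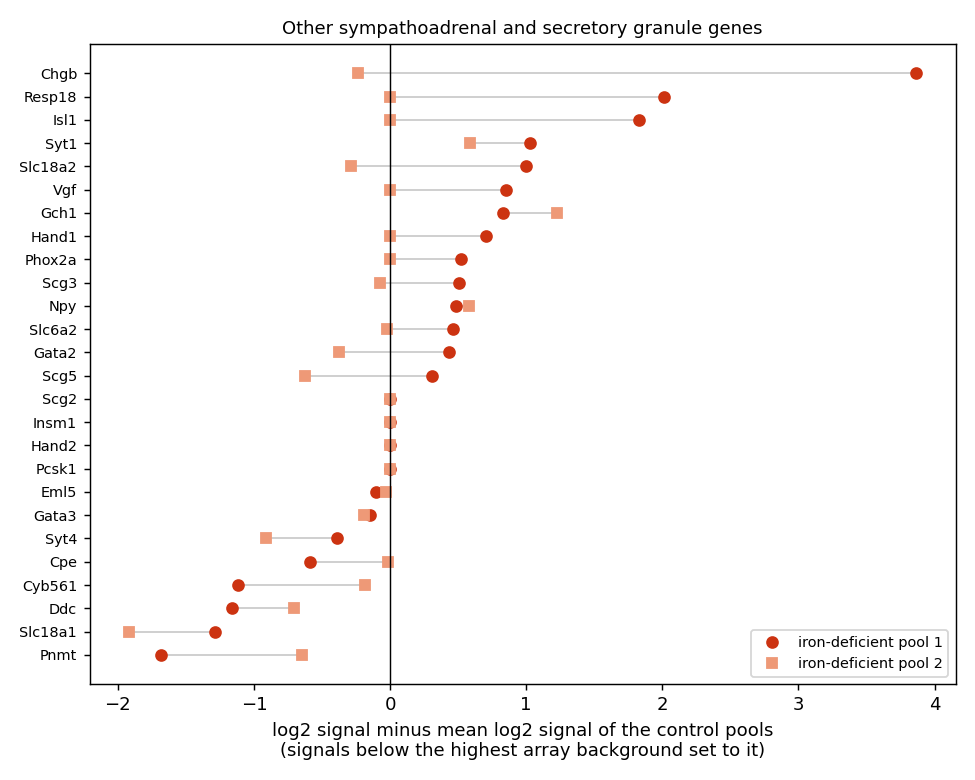
Each of the 26 other sympathoadrenal and granule genes (rows) under iron deficiency, as log2 signal minus the mean log2 signal of the control pools, after signals below the highest array background were set to it; circles are deficient pool 1 and squares deficient pool 2. In pool 1, 5 genes lie above 1 and 4 below -1, with Chgb at 3.86 and Pnmt at -1.68, while in pool 2 only Gch1 (1.22) lies above 1 and only Slc18a1 (-1.92) below -1.

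Neural and glial genes gave a partly different picture. Of 10 tested neuronal genes, 3 were higher and 3 lower in both deficient pools, with a median of 0.06 and none past the adjusted threshold by limma. Stmn3, a microtubule regulator of neurons, read 34.6 and 24.8 against 149.2 and 77.1, a difference of 1.87 ± 0.45 (limma adjusted p = 0.852) with separate groups, and Stmn2 and Nefl differed by 0.70 each. Snap25, a synaptic vesicle fusion protein, read 4.8 and 4.3 against 45.1 and 4.7, while Tubb3 read 6.7 and 14.9 against 29.6 and 19.1. Dcx, a microtubule protein of young neurons, read 454.5 and 351.5 against 979 and 447, and with Snap25 it made 2 of 14 neuronal genes highest in deficient pool 1 by the 2-fold rule. Sncg, a synuclein of peripheral neurons, went the other way at -0.64 ± 0.31. Summed over 14 neuronal genes, the signal was 2192 and 2413 in the controls and 2668 and 2384 under iron deficiency. Of 8 Schwann cell and glial genes, 4 were tested, 2 of these were higher in both deficient pools, and the defining marker Sox10 lay between 8.3 and 11.4, with 1 control value above background. S100b differed by 1.39 ± 0.40 (limma adjusted p = 0.852), but it passed the filter only through the deficient pools, since its controls read 15 and 10.1. The differences were 0.16, 0.21 and 0.08 for Fabp7, Erbb3 and Ednrb. Summed signals of the glial list were 1763 and 1701 against 2325 and 1574. Most of each sum came from Erbb3 and Ednrb, which read 563.1 and 1083.6 in control pool 1. The part of nerve in the Th and Dbh signals was not tested.

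Among steroidogenic enzymes and their electron partners, 12 of 20 listed genes had a probe set and 7 were tested, of which 0 were higher and 3 lower in both deficient pools (median -0.47, beside -0.10 over all tested probe sets), with none past the adjusted threshold by limma. The summed signal of the 12 was 6128.5 and 6144.3 in the controls, then 3762.2 in deficient pool 1 but 5584.6 in deficient pool 2. Most of each sum came from Cyb5a and Cyb5b, which read 1985.5 and 2126.4 in control pool 1. The sum therefore says little of the dim Cyp11b1, Cyp11b2 and Cyp21a1. Cyp11b2, the aldosterone synthase, read 0.3 to 1.1 and Cyp11b1, the enzyme of the last step to corticosterone, 4.6 and 4.6 against 10.4 and 9.9, all below background, although both deficient values of Cyp11b1 were above the alternative one. Cyp21a1 read 33.5 and 14.5 against 36.4 and 13.9, with overlapping groups. Fdx1, the ferredoxin that does hand electrons to Cyp11a1, read 419.2 and 499.1 against 242.2 and 481.6 (-0.42 ± 0.44, limma adjusted p = 0.852), where deficient pool 1 alone was low. Akr1c18, Cyb5b, Hsd11b2 and H6pd, the other enzymes with the smallest p, differed by -0.53, -0.47, -0.52 and -0.60. Fdxr was not analysed here.

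All 9 cholesterol genes with a probe set were tested, and 3 were higher and 2 lower in both deficient pools (median -0.01). Scarb1, the receptor that takes up cholesterol from high-density lipoprotein, read 440.5 and 399 against 1653.2 and 495, and so was highest in deficient pool 1, while the mitochondrial protein gene Tspo read 346.2 and 327.8 against 96.3 and 282.6. Tspoap1 and Acbd3, whose proteins bind Tspo, differed by 0.61 and -0.60. Of 17 tested regulators, 4 were higher and 2 lower in both deficient pools, with a median of 0.17 that is 0.62 in deficient pool 1 and 0.06 in deficient pool 2. Nr5a2, the closest relative of Nr5a1, read 52.4 and 59.5 against 15.2 and 33.2 (-1.31 ± 0.46), and Dlk1, an imprinted gene also made by the adrenal capsule, 959.3 and 1121 against 1637.5 and 3045 (1.11 ± 0.42), both with a limma adjusted p of 0.852. Ptch1 and Nr2f2 differed by 0.53 and 0.57. Gata4, a transcription factor of fetal adrenal and gonad that is named here after its values were seen, read 3.5 and 2.7 against 19.9 and 15.2, above background in both deficient pools and neither control, at least 2.08-fold higher, or 1.21-fold at the highest background. Nr4a2, an orphan nuclear receptor, read 245.4 and 144.1 against 632.8 and 99, and was highest in deficient pool 1 by the 2-fold rule. Nr0b1, a nuclear receptor that restrains Nr5a1, read 17.1 and 10.6 against 18.1 and 13.7, above background in every pool but too dim to be tested. Mrap, the accessory protein of the Mc2r receptor, read 5 and 1.7 against 13.7 and 11.4, all below background, although both deficient values were above the alternative one.

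Steroid genes are also made in the gonads, and gonad markers varied in signal. Of 12 gonad genes on the array, 4 were above background in every pool and 4 in no pool, and 4 were tested. Amh, of Sertoli cells, read 1.2 to 2.7, and the Leydig cell gene Insl3 was not analysed here. The tested ones included Fst, an activin antagonist that kidney also expresses, at 26.2 and 23.6 against 117.2 and 112.7 (2.21 ± 0.31, limma adjusted p = 0.465), Dhh at 38.7 and 42.8 against 21.3 and 19.7 (-0.99 ± 0.31) and Amhr2 at 0.08. Sox9, which is not confined to gonads, read 342.1 and 291.7 in the controls, then 3529 in deficient pool 1 but 409.1 in deficient pool 2, and it made up most of the list's summed signal of 485.2 and 410.6 against 3746 and 612.5. The part of gonad in the cortical signals was not tested.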

How the data were processed

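Total RNA of each pool was made into biotinylated cRNA for the array, per the labels' protocols. What the authors deposited is a linear intensity for each probe set, between 0 and 13763. RMA is named in the submitters' processing notes, but values from RMA would be logarithmic and share a distribution, which these do not. No build is given in the sources used here. The number of arrays limits the precision.

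Intensities were turned to log2 with a floor of 0.1. The 64 control probe sets and the lowest 40% of the others were left out. Diets were compared by limma 3.58.1 (R 4.3.3), two-sided. P-values of the 27022 tested were adjusted by Benjamini-Hochberg. The script was tested on simulated data. Errors after ± are standard errors. The members and gene lists were chosen with earlier results of these data known. The text names all members, up to 4 tested genes of each list by smallest p, and fixed marker genes. Genes such as Resp18, Isl1 and Snap25 were added by the 2-fold rule. That rule, the common background and the scaling to hybridisation controls were chosen after the data were seen. Of the listed genes, 25 were not analysed here. Alternatives covered filter, normalization, offset, eBayes trend, array weights, pool number and each pool left out.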

Additional observations from a re-analysis of the deposited data

How the results depend on the processing

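The count of probe sets past an adjusted p of 0.05 by limma, 0 as reported, was also 0 without a filter, with the lowest 60% left out, after quantile normalization, with an offset of 16, with an intensity trend, with array weights and at an adjusted p of 0.10. It was 201 after median centring, 157 after scaling to hybridisation controls and 0 to 75 with 1 pool left out, and no member was among them. With the pool number as a replicate block it was 479, again with no member. The labels do not say that the numbers pair pools, and the deviations of same-numbered pools correlated at 0.357 across probe sets. The cause of these shifts was not tested. Where 1 pool is left out, the lone pool of its diet is assumed to vary like the others.

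The 7 tested member probe sets gave 84 differences over these alternatives. Of the 84, 78 kept their direction and 6 reversed, all with 1 pool left out. Many of the 78 could not have reversed. Without a filter, with an intensity trend, with array weights and with the replicate block, the difference itself stayed the same and only its p-value changed. The stricter filter on mean signal left no member to test, so it is not among the 84. With 1 pool left out, the difference ran from -0.46 to 0.44 for Cyp11a1 on 1439947_at, from -0.37 to 0.13 for Mc2r, from -1.25 to 0.46 for Star on 1418728_at and from -0.49 to 1.98 for Chga, or -0.11 to 1.85 with dim signals set to background. With dim signals set to the highest background, the difference was 1.25 for Th and 0.95 for Dbh on 1447592_at, or 1.98 and 1.74 with each array's own background, and without deficient pool 1 it was 0 and 0.52. With the background as the median plus 3 median absolute deviations of its control probe sets, 7 rather than 5 member probe sets were above it in all pools. Signals this close to background limit every comparison of these genes.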

Other observations

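The genes whose pattern over the 4 pools was nearest to that of the cortical members were found by the distance between log2 signals, each centred on its own mean, over 12993 tested genes. The pattern averaged the 5 cortical probe sets above background in all pools. The nearest were BC048403, Tefm, Kif24, Ptprk and Gm2788, at distances of 0.04 to 0.06 log2 units. All of them, like the averaged cortical pattern, were higher in pool 1 than in pool 2 of each diet, although Star on 1449201_at, 1 of the 5 probe sets averaged, was lower in pool 1 of each diet. Tefm, a mitochondrial transcription elongation factor, read 473.8 and 371.8 in the controls and 465.8 and 381.3 under iron deficiency.

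No chromaffin probe set was above background in all pools, so their pattern was taken over all 5 with signals below the highest background set to it, a choice made after the data were seen. Among 14316 genes the nearest were Resp18, 9430078G10Rik, Gata1, Slc2a13 and Vps13c, at distances of 0.07 to 0.12 log2 units. Gata1, a transcription factor of red cell precursors, read 8.5 and 5.2 in the controls, then 54.6 in deficient pool 1 but 14.4 in deficient pool 2. Slc2a13, an inositol transporter, read 140.8 and 140.7 against 593.4 and 163.8. These distances rest on 4 pools and describe them only.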
